A study of Saccharomyces cerevisiae with 50 samples.

Results

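The yeast strains labelled rpl41a (strain number 7467) and rpl41b (7461) each lacked 1 copy of the gene for Rpl41, a protein of the large (60S) ribosomal subunit. Their columns, taken by title, gave 1 mRNA library and 1 ribosome footprint library per strain, 4 of the 50 libraries of the series. They were set against the other strains whose titles start with rpl, which gave 12 mRNA libraries and 11 footprint libraries. These strains were rpl38, rpl26a, rpl26b, rpl26a rpl26b, rpl24a, rpl24b, rpl40a, rpl40b and rpl7a, with the double heterozygotes rpl40a/+ rpl40b/+, rpl26a/+ rpl26b/+ and rpl7a/+ rpl7b/+. The footprint library of rpl26a/+ rpl26b/+ (4654) was left out. Its RPL26A and RPL26B footprints were at 99.9% and 100.6% of the median level in strains labelled for other families. This footprint library thus did not show the labelled loss of copies, while the strain's mRNA was at 53.1% and 51.2%. All strains were of the SK1 background, including the wild type (4484, labelled WT1 and WT2 in each assay), and were harvested while growing exponentially in rich glucose medium. The series asked which changes in gene expression go with the level of total translation. The labels give no marker gene, batch or separate culture, and no ploidy beyond the /+ genotypes of the double heterozygotes. No strain was sequenced more than once per assay apart from the wild type. The rpl41a and rpl41b strains are different genotypes, so that p-values here measure the spread between strains. In bulk RNA, fewer cells of a kind and less RNA per cell cannot be told apart.

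Rpl41 is among the smallest known proteins. It is made from a pair of near-identical genes, RPL41A and RPL41B, and lies at the face of the 60S subunit that meets the 40S subunit. Ribosome footprints are the stretches of mRNA that ribosomes protect from nuclease, so that their number follows how much of an mRNA is being translated. Gcn4, after which a gene list below is named, is the transcription activator of the genes of amino acid synthesis. Its own mRNA carries short upstream reading frames that keep most ribosomes from its coding region until less initiator tRNA is delivered to the ribosome, as happens when amino acids run short.

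The deleted genes were checked first. RPL41A, with a coding length of 78 nt, had 0 reads in rpl41a mRNA and 6 reads in rpl41b mRNA. RPL41B had 13 reads in rpl41a and 0 in rpl41b. Each strain was thus at 0 for its own labelled gene, while the other 60S strains had 6 to 51 reads of RPL41A and 8 to 54 of RPL41B. These counts are small, and the limit of 3 reads that a count of 0 allows came to 33.6% of the median level of the other 60S strains for RPL41A in rpl41a and to 12.2% for RPL41B in rpl41b. The copy left in place was at 657 RPKM (reads per kilobase, scaled to library size) for RPL41B in rpl41a, against a median of 654 RPKM in the other 60S strains. RPL41A in rpl41b was at 159 RPKM, against a lowest value of 208 and a median of 451 RPKM. The wild-type libraries had RPL41B at 369 and 288 RPKM and RPL41A at 328 and 144 RPKM, from 4 to 9 reads each. No library of the series had a footprint read of either gene, so that the footprint labels could not be checked this way. The rpl41a footprints correlated with rpl41b mRNA at 0.66 and with their own mRNA at 0.62, and the rpl41b footprints with their own mRNA at 0.64 and with rpl41a mRNA at 0.53. These are correlations over 4216 genes of deviations from the same reference libraries, given as a description.

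In the recovered counts, the rpl41a and rpl41b mRNA libraries held 1100036 and 2090623 reads and the footprint libraries 6796206 and 6377506. The other 60S libraries held 1.352 to 3.506 M reads in mRNA and 4.518 to 8.572 M in footprints. The strain labelled rpl40a/+ rpl40b/+ had RPL40A mRNA at 96.4% of the level in strains labelled for other families and RPL40B at 55.3%, with footprints at 79.3% and 45.4%, so that its RPL40A mRNA did not show the labelled loss of a copy. Of haploid and mating-type genes, 24 were listed as markers of other cell types. They summed to 92.5 to 120 RPKM in the mRNA of the rpl41 strains and to 100.8 to 167 RPKM in the other 60S strains, and MFA1, MF(ALPHA)1, MF(ALPHA)2, AGA2, STE3 and STE18, 6 of the 24, were at 0 in both rpl41 strains. Meiotic genes (19) summed to 66.9 to 73.7 against 67.5 to 86.7 RPKM, with SPO13 and MEI5 at 0 in both. In the wild-type mRNA libraries the lists summed to 125 to 146 and to 79.7 to 79.8 RPKM. There too 6 of the 24 genes, and 1 of the 19, were at 0 in every library. The part of these levels in the results was not tested.

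Against the other 60S strains, the rpl41 strains had higher mRNA and footprints of amino acid synthesis genes and of some glycolytic genes. They had lower footprints of most ribosome assembly factors and proteasome subunits, and lower mRNA of some of these. Some RNA polymerase I and III genes were lower in each assay. In mRNA, 104 of 5103 genes tested rose (2.04%) and 353 fell (6.92%). The deleted genes RPL41A and RPL41B were among these falls. In footprints, 184 of 4236 rose (4.34%) and 801 fell (18.9%). Genes past the test in both assays in the same direction, with both strains on that side of the other strains' median, are called shared. Of 4216 genes tested in both assays, 76 were shared rises (1.8%) and 164 were shared falls (3.89%). The 240 shared genes were 57.8% of the mRNA calls among these genes and 24.4% of the footprint calls.

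Large changes were mostly rises. Of the shared genes, 26 rose by 1 or more on the log2 scale in both assays and 2 fell by as much. Both rpl41 libraries lay outside the range of the other 60S strains in both assays for 105 genes on the higher side (2.49%) and 201 on the lower side (4.77%), a count that needs no variance estimate. Within a single assay the groups did not overlap for 3.84% of genes on the higher and 9.88% on the lower side in mRNA, and for 5.05% and 20.7% in footprints. Tests were run with limma on log2(RPKM + 1) at a Benjamini-Hochberg adjusted p under 0.05. Leaving out rpl41a left 1 call in mRNA and 0 in footprints (580 and 765 genes at an unadjusted p under 0.05) and no shared gene. Leaving out rpl41b left 54 shared genes, and leaving out rpl40a/+ rpl40b/+ or rpl40b (2700) gave 416 or 148.

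The median gene tested was lower in the rpl41 strains by a log2 change of -0.11 in mRNA and -0.18 in footprints. Scaling by the median of ratios removes that shift. The split then became 141 higher and 106 lower in mRNA, 281 and 225 in footprints, and 88 and 21 among shared genes. Genes without overlap in both assays then numbered 167 on the higher side and 48 on the lower. Quantile normalization gave 135 and 73, so that this count too turns with the scaling. Voom, the form of limma for counts, gave 126 rises among its 227 calls in mRNA and 99 among its 154 shared genes. Small falls below are therefore to be read against this median.

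**Figure D1:**
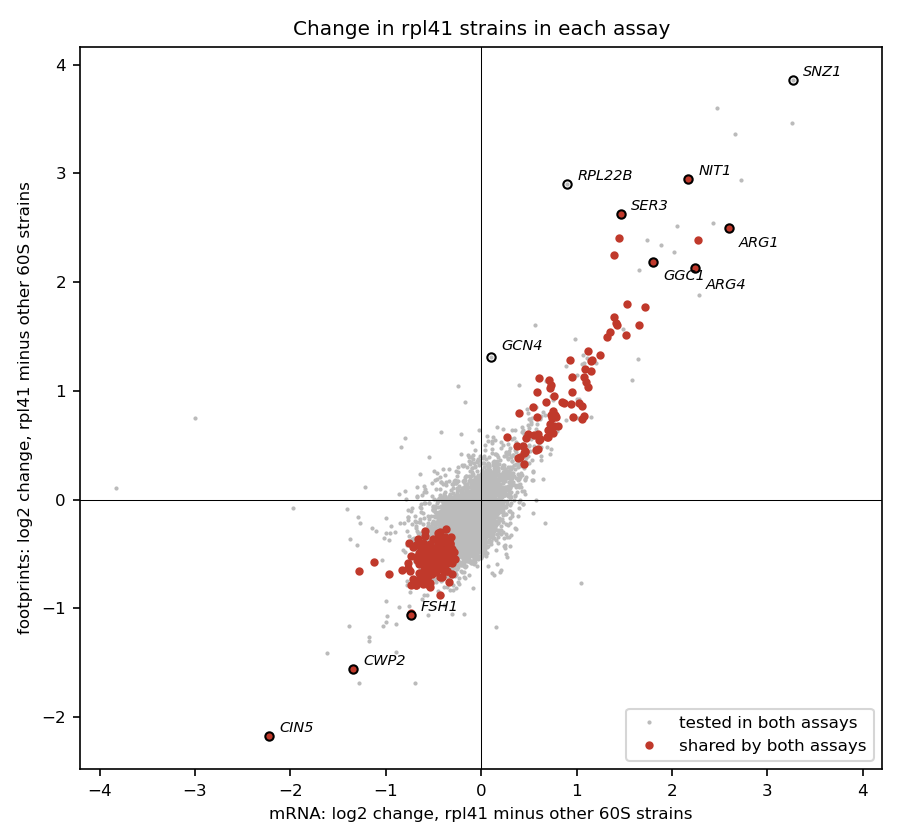
Log2 change of the rpl41 strains against the other 60S strains in mRNA (x axis) and footprints (y axis), with 1 point for each gene tested in both assays and the 240 shared genes in red. Rises reach farther from the origin than falls, and GCN4 and RPL22B lie far above the diagonal.

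Genes of amino acid synthesis under Gcn4 rose in both strains and both assays. Of 49 listed genes tested, 36 rose in mRNA, 39 in footprints and 33 in both, and none fell in either. The all-gene shares of rises were 2.04%, 4.34% and 1.8%. The list's median log2 change was 0.75 in mRNA and 0.77 in footprints. Set against the 2 wild-type libraries, the list's median was 0.70 in rpl41a mRNA, 0.63 in rpl41b mRNA, 0.70 in rpl41a footprints and 0.58 in rpl41b footprints. The other 60S strains ran from -0.46 in rpl7a to 0.38 in rpl26a/+ rpl26b/+ for mRNA and from -0.55 to 0.42 for footprints. Both rpl41 strains were thus above every other 60S strain in each assay. Without rpl41a, 0 of the 49 passed in either assay, with medians of 0.71 and 0.78, and without rpl41b 3 and 4 passed, with medians of 0.77 and 0.81. With the spread taken over all strains, 40S strains included, 0 passed in mRNA and 10 in footprints.

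**Figure D2:**
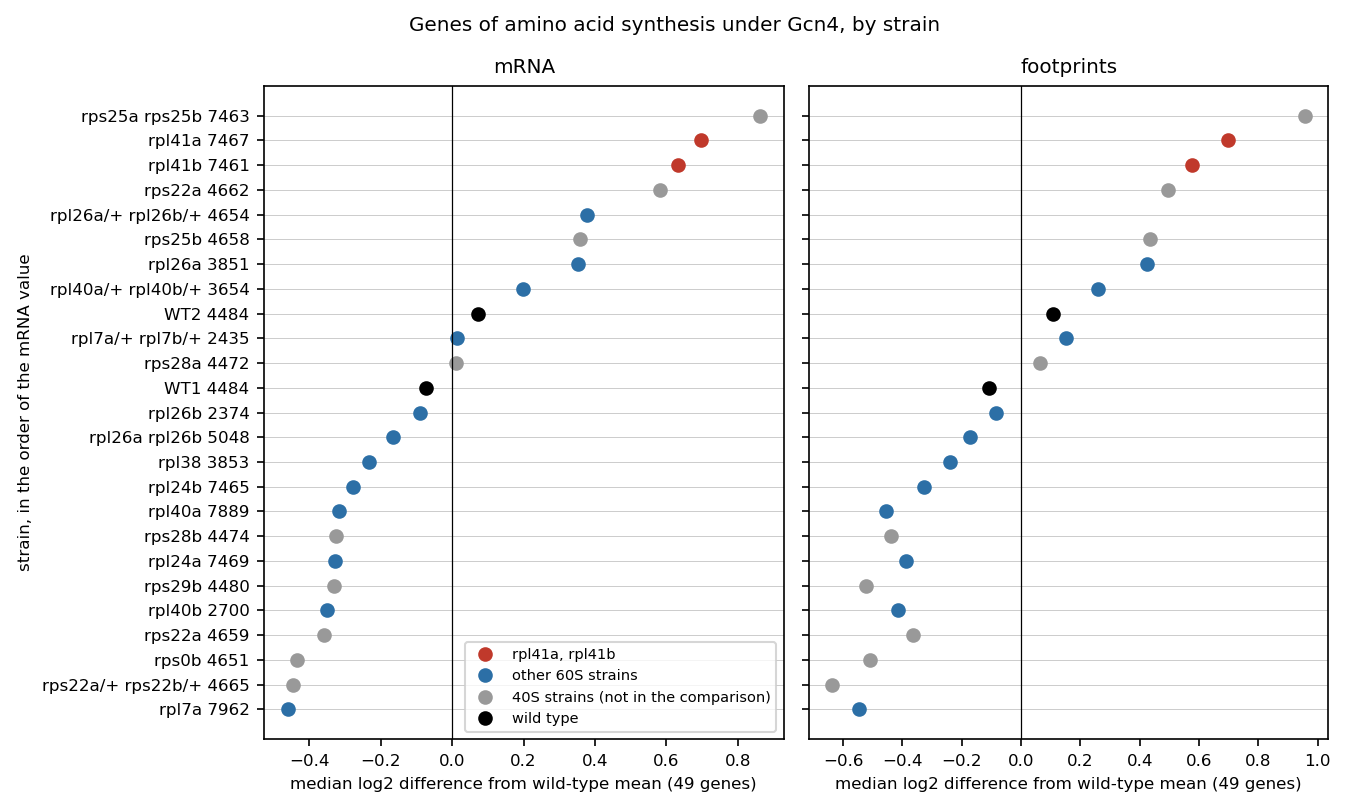
Median log2 difference from the wild-type mean over 49 genes of amino acid synthesis under Gcn4, 1 point per strain, in mRNA (left) and footprints (right; the rpl26a/+ rpl26b/+ library is not shown). The rpl41 points, at 0.58 to 0.70, lie above all other 60S strains, and the 40S strain rps25a rps25b lies above them at 0.86 and 0.96.

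In mRNA the largest of these rises were in the arginine branch. ARG1, the argininosuccinate synthetase gene, had 1085 RPKM of mRNA in rpl41a and 1013 in rpl41b, while the other 60S strains ranged from 49.9 over a median of 147 to 549 RPKM. Its footprints stood at 1087 and 920 RPKM, against 57.4, 163 and 634. Neither assay showed overlap, and the log2 change was 2.59 ± 0.76 (SE) in mRNA (adjusted p = 0.0447) and 2.50 ± 0.71 in footprints (adjusted p = 0.0228). The mRNA call was lost in 13 of 24 other settings. ARG4, for argininosuccinate lyase, which acts next, had 659 and 596 RPKM of mRNA against 55.3, 123 and 343, and 728 and 706 RPKM of footprints against 91.1, 153 and 443. Its log2 changes were 2.24 ± 0.60 and 2.13 ± 0.52 (adjusted p = 0.0334 and 0.0124). ARG3, which makes citrulline, and ARG7, which makes ornithine, rose by log2 changes of 1.65 and 1.71 in mRNA and 1.61 and 1.77 in footprints.

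Other branches moved the same way. LYS20, a homocitrate synthase that starts lysine synthesis, had 182 and 162 RPKM of mRNA against 34.7 to 120, and 218 and 204 RPKM of footprints against 34.1 to 126. It rose by 1.53 ± 0.43 and 1.80 ± 0.42. The mRNA call was lost in 11 of 24 other settings. LYS20 lies close to RPL41A, and its mRNA was higher in rpl41a than in rpl41b by a log2 difference of 0.17. The part of its position in the result was not tested. HIS4, a multifunctional histidine enzyme, rose by 1.51 ± 0.36 in mRNA and 1.51 ± 0.39 in footprints (adjusted p = 0.0238 and 0.0167). SER3, which opens serine synthesis, had 158 and 154 RPKM of mRNA against 37.7 to 100, and its footprints, at 112 and 132 RPKM against 4.92, 16.6 and 89.5, rose by 2.63 ± 0.84. LYS2, which acts later in the lysine pathway, rose by 0.73 ± 0.15 and 1.06 ± 0.24. HIS4, LYS2 and ARG4 are also common auxotrophic markers, and the labels do not say which alleles each strain carried.

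Several shared rises lay outside that list and have known links to amino acid supply. PCL5 encodes a cyclin that directs the breakdown of Gcn4. Its mRNA was at 387 and 412 RPKM against 90.8, 128 and 260, and its footprints at 43.0 and 38.3 RPKM against 2.171, 6.32 and 21.8, so that no library overlapped. The log2 changes were 1.44 ± 0.33 and 2.41 ± 0.48 (adjusted p = 0.0218 and 0.00644). ATG41, an autophagy gene, had 246 and 252 RPKM of mRNA against 25.2 to 172, and 360 and 349 RPKM of footprints against 38.6 to 176. It rose by 2.27 ± 0.63 and 2.39 ± 0.46. Among genes of sulfur amino acid metabolism, MET13 (methylenetetrahydrofolate reductase), STR2 (cystathionine gamma-synthase) and MET22 (a phosphatase of sulfate assimilation) were shared rises of 1.07 to 1.42 in mRNA, 3 of 22 listed genes tested in both assays. In mRNA 3 of 28 listed genes rose, and in footprints 5 of 23 rose and 2 fell. Over all genes 2.04% rose in mRNA, 4.34% rose and 18.9% fell in footprints, and 1.8% were shared rises. IDP1, the mitochondrial isocitrate dehydrogenase, rose by 1.12 and 1.04. GGC1, a mitochondrial carrier of guanine nucleotides, rose by 1.80 and 2.19.

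The largest mean rise over the 2 assays among shared genes was that of NIT1, a nitrilase gene. It stood at 110 and 85.5 RPKM of mRNA against 8.25 to 56.5, and at 160 and 139 RPKM of footprints against 6.19 to 97.7, with log2 changes of 2.172 ± 0.59 and 2.95 ± 0.81. SNZ1, a vitamin B6 gene that Gcn4 also controls, had the largest footprint rise of any gene, 3.86 ± 1.21 (adjusted p = 0.0335). Its footprints were at 1122 and 1113 RPKM against 8.19, 93.9 and 585. Its mRNA, at 868 and 785 RPKM against 17.4 to 428, missed the threshold (adjusted p = 0.0534), although no library overlapped. The other 60S strains differed widely among themselves in these genes, with rpl7a lowest and rpl26a, rpl40a/+ rpl40b/+ or rpl26a/+ rpl26b/+ highest in most.

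GCN4 itself differed between the assays. Its mRNA was at 1856 RPKM in rpl41a and 1833 in rpl41b, within the 1562 to 1899 RPKM of the other 60S strains (median 1704), a log2 change of 0.10 ± 0.07 (adjusted p = 0.345). Its footprints were at 255 and 277 RPKM, above the 62.7 to 223 RPKM of the others (median 91.1). They rose by 1.31 ± 0.40 (adjusted p = 0.0292), a call that was lost without rpl41a, without rpl41b and with all strains in the fit. The wild-type libraries had 112 and 125 RPKM of GCN4 footprints. Translational efficiency, the log2 footprint level of a strain less its log2 mRNA level, was higher for GCN4 by 1.22 ± 0.44, which did not pass over all genes in limma (unadjusted p = 0.0137, adjusted p = 0.241).

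No gene passed the test for translational efficiency. Of 4217 genes, 0 were called by limma, 607 had an unadjusted p under 0.05 (14.4%), and the smallest adjusted p was 0.115. Voom called 17 genes. The Gcn4 list, high in both assays, had a median efficiency change of -0.07.

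**Figure D3:**
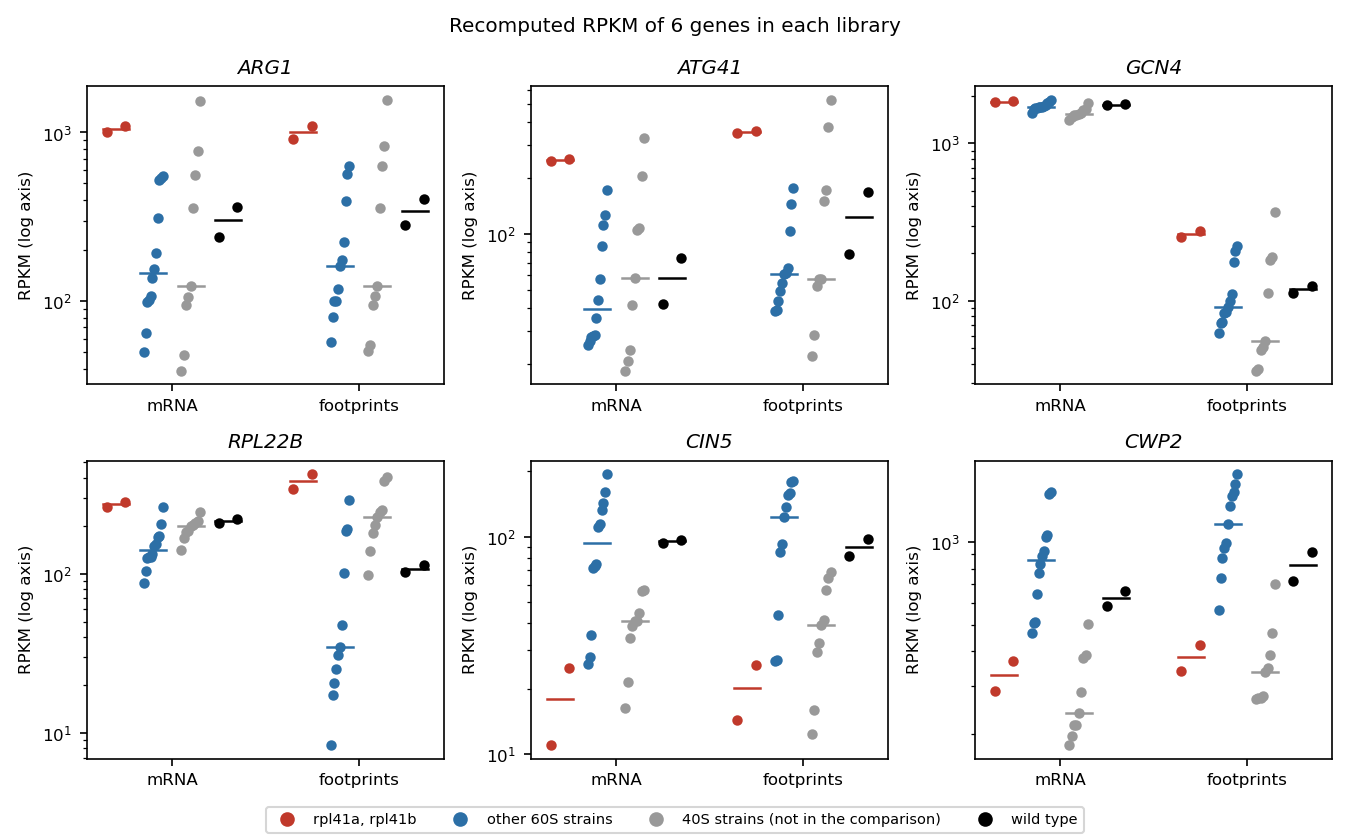
Recomputed RPKM (log axis) of 6 genes in every library, with medians as lines, for rpl41 (red), other 60S (blue), 40S (grey) and wild-type strains (black). The rpl41 points lie above the other 60S strains for ARG1 and ATG41 in both assays and for GCN4 in footprints, and below them for CIN5 and CWP2.

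Factors that assemble ribosomal subunits, which bind precursors in the nucleolus and leave before the subunit works, were lower. Of 70 listed 60S assembly factors, 23 fell in mRNA, 55 in footprints and 17 in both. The list's median log2 change was -0.32 and -0.51. Of 73 listed 40S assembly factors, 27 fell in mRNA, 57 in footprints and 25 in both, with medians of -0.36 and -0.51. None of either list rose. The all-gene shares of falls were 6.92% in mRNA, 18.9% in footprints and 3.89% in both. Against the wild-type mean, 60S assembly factors had a median of -0.43 in rpl41a mRNA and -0.25 in rpl41b mRNA, and of -0.53 and -0.30 in footprints. The lowest of the other 60S strains, rpl40a/+ rpl40b/+, was at -0.23 and -0.17. Both lists were lower in rpl41a than in rpl41b.

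These falls were moderate in size. MAK16, needed for early 60S precursors, had 131 and 154 RPKM of mRNA against 168, 208 and 262, and 131 and 174 RPKM of footprints against 208, 264 and 296. It fell by 0.56 and 0.76 on the log2 scale (adjusted p = 0.0201 and 0.00521). RPF1, another early 60S factor, fell by 0.75 in mRNA (57.1 and 65.3 RPKM against 83.1 to 133) and by 0.65 in footprints (75.5 and 109 RPKM against 115 to 170). IPI1, of the complex that releases late 60S particles, fell by 0.43 and 0.88. For the 40S subunit, UTP18 and LCP5 of the early processome fell by 0.58 and 0.63 in mRNA and by 0.76 and 0.58 in footprints, and LTV1, which acts on late 40S particles, fell by 0.57 and 0.63. With median-of-ratios scaling 4 of 70 and 7 of 73 assembly factors fell in mRNA, and 22 and 33 in footprints. Without rpl40a/+ rpl40b/+ the mRNA counts were 40 and 46, without rpl40b 13 of the 60S factors fell, and without rpl41a none of either list passed. With voom 8 and 11 fell in mRNA, and with all strains in the fit 1 and 3 fell in mRNA and 25 and 31 in footprints.

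**Figure D4:**
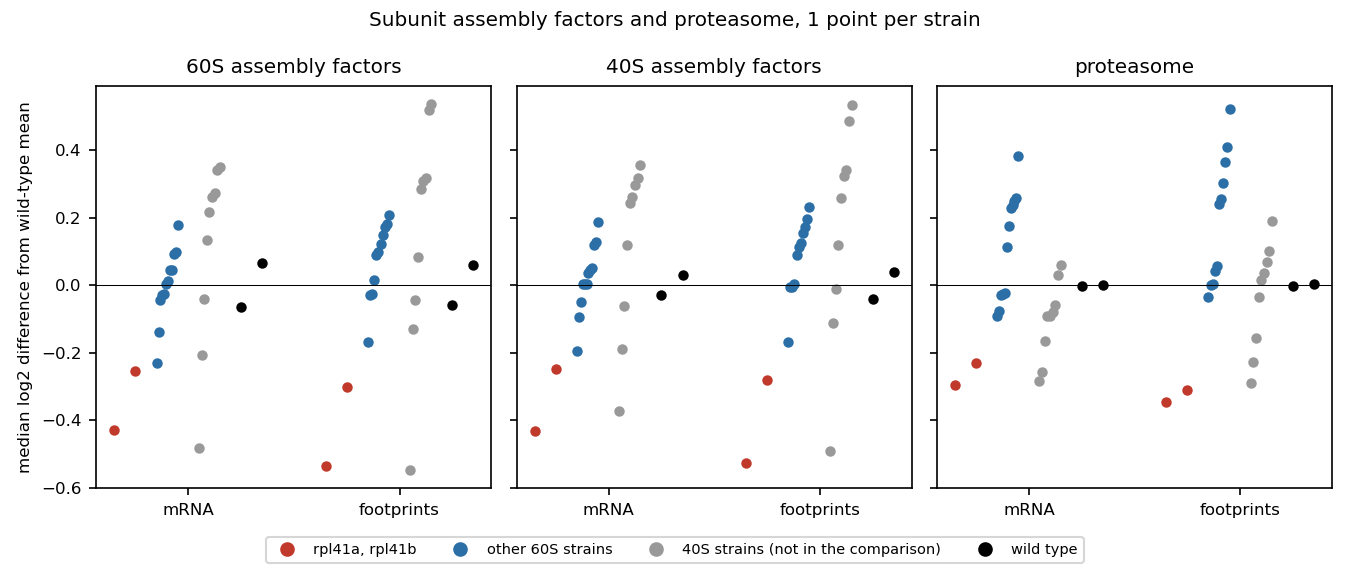
Median log2 difference from the wild-type mean for 60S assembly factors, 40S assembly factors and proteasome genes, 1 point per strain and assay. Both rpl41 strains lie below every other 60S strain in all 3 lists, from -0.23 to -0.53. The 40S strain rps25a rps25b lies at -0.48 in mRNA and -0.55 in footprints for 60S assembly factors, and at -0.37 and -0.49 for 40S ones. The 40S strains have medians of 0.22 and 0.29 for the former, and 0.24 and 0.26 for the latter. For the proteasome the 40S strain rps25b lies at -0.28 and -0.29, with 40S strain medians of -0.09 and 0.02.

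RNA polymerase I transcribes the large ribosomal RNAs, and polymerase III the smallest ribosomal RNA and tRNAs. Of 37 genes listed for them and tested in mRNA, 7 fell, of 32 tested in footprints 14 fell, and 5 fell in both. Over all genes tested, 6.92% fell in mRNA, 18.9% in footprints and 3.89% in both. RET1, the second-largest polymerase III subunit, fell by 0.44 and 0.71 (96.5 and 109 RPKM of mRNA against 117 to 156). RPA12, a polymerase I subunit, fell by 0.48 and 0.58.

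Proteasome genes fell as well, more of them in footprints. Of 38 genes, 11 fell in mRNA, 28 in footprints and 9 in both, with medians of -0.38 and -0.52. Falls over all genes came to 6.92%, 18.9% and 3.89%. PRE3, a catalytic subunit, had 155 and 181 RPKM of mRNA against 176, 281 and 334, and 225 and 234 RPKM of footprints against 291, 404 and 564. It fell by 0.67 and 0.75 (adjusted p = 0.0417 and 0.0241), and rpl41b overlapped 1 other strain, in mRNA only. The mRNA call was lost in 13 of 24 other settings. RPN13, the ubiquitin receptor, fell by 0.65 and 0.60. By strain, the proteasome median against wild type was -0.23 in rpl41a and -0.30 in rpl41b for mRNA, while the other 60S strains lay between -0.09 and 0.38. In footprints rpl41a was at -0.35 and rpl41b at -0.31, and the others between -0.04 and 0.52. The mRNA count went to 2 with median-of-ratios scaling and the footprint count to 12, and with quantile normalization to 2 and 16. With all strains in the fit 5 fell in mRNA. Without rpl41a neither assay had a call, and without rpl41b 1 and 4 genes fell. Leaving out 1 of the other 60S strains gave 6 to 17 calls in mRNA, with 6 without rpl26b, rpl26a rpl26b or rpl40b and 17 without rpl26a/+ rpl26b/+.

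Ribosomal protein genes outside the families deleted in the 60S strains changed less. Of 70 listed 60S protein genes, 3 rose in mRNA and 15 in footprints. Of 47 listed 40S protein genes, 0 rose in mRNA (limma) and 4 in footprints. Over all genes tested, 2.04% rose in mRNA and 4.34% in footprints. The medians were 0.01 and 0.13 for the 60S list and 0.02 and 0.14 for the 40S list. With median-of-ratios scaling 23 of the 60S list and 10 of the 40S list rose in footprints, while with quantile normalization 1 of each rose. With the left-out rpl26a/+ rpl26b/+ footprint library put back, 6 of the 60S list and 3 of the 40S list rose. With all strains in the fit 9 and 1 rose. Without rpl41a neither list had a call, and without rpl41b 1 gene of the 60S list rose in footprints. The share of all reads in these 117 genes was 13.2% in rpl41a and 12.3% in rpl41b mRNA, against 12.5 ± 0.49% (SD, n = 12), which did not differ beyond the spread (exact two-sided permutation test, p = 0.451). In footprints it was 23.9% in rpl41a and 24.0% in rpl41b, against 22.1 ± 0.84% (SD, n = 11). The difference was 1.89 percentage points (exact two-sided permutation test, p = 0.0128, the smallest the design allows). The separation of the groups rests on leaving out the rpl26a/+ rpl26b/+ footprint library, which lay between the 2 rpl41 strains at 23.9%. With it put back, a setting added after seeing the data, the difference was 1.73 points (exact two-sided permutation test, p = 0.033). The wild-type libraries, at 24.7% and 22.1%, lay above and below the rpl41 pair. The lower of them was inside the 20.3% to 23.7% of the other 60S strains.

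RPL9B, the less used copy of RPL9, was the 1 ribosomal protein gene shared by both assays. It had 615 and 430 RPKM of mRNA against 147, 210 and 420, and 1053 and 876 RPKM of footprints against 287, 355 and 747, and rose by 1.16 ± 0.27 and 1.29 ± 0.28. RPL22B, the less used copy of RPL22, had the largest footprint rise among ribosomal protein genes. Its footprints were at 421 and 340 RPKM against 8.37, 34.8 and 288, a rise of 2.91 ± 0.99 (adjusted p = 0.0458). The call was lost in 12 of 23 other settings. RPL22B footprints in the 40S strains, outside this comparison, ran from 97.9 to 407 RPKM. The RPL22B mRNA, at 282 and 263 RPKM against 86.9 to 264, was higher by 0.90 ± 0.28 and missed the threshold (adjusted p = 0.0534), with rpl41b just inside the range of the others. RPL8A footprints rose by 1.10 ± 0.34 and RPL18B footprints by 0.95 ± 0.31. Of the 40S genes, RPS27B had 8076 and 7904 RPKM of footprints against 4973 to 7485, a rise of 0.41. These genes have near-identical copies, and how the authors assigned reads that match both copies is not given in the sources used here, so that their values are uncertain.

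Of 38 translation factors tested in mRNA 1 rose and 5 fell, of 39 tested in footprints 1 rose and 11 fell, and GCD6, GCN3 and SUP45 fell in both. Over all genes 6.92% fell in mRNA, 18.9% in footprints and 3.89% in both, while 2.04% rose in mRNA and 4.34% in footprints. GCD6 and GCN3 are subunits of eIF2B, the factor that recharges eIF2 for initiation and through which GCN4 translation is controlled. GCD6 had 83.1 and 101.003 RPKM of mRNA against 103 to 130, and 45.2 and 48.2 RPKM of footprints against 60.9 to 75.7, and it fell by 0.34 and 0.53. GCN3 fell by 0.31 and 0.47, and SUP45, the release factor eRF1, by 0.31 and 0.45. The mRNA call was lost in 17 of 24 other settings for GCN3 and in 10 of 24 for GCD6. Footprints of EGD1, a subunit of the nascent polypeptide-associated complex, rose by 0.64 ± 0.15 (3262 and 3386 RPKM against 1672 to 2636), while its mRNA was at 1225 RPKM in both strains, inside the 1116 to 1438 RPKM of the others.

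Some glycolytic genes rose. Of 31 genes of glycolysis and fermentation tested in mRNA 8 rose, of 30 in footprints 8 rose, and 6 rose in both. Rises over all genes came to 2.04%, 4.34% and 1.8%. Without rpl26b, rpl24b, rpl40b or rpl24a 5 rose in footprints, and without rpl40a/+ rpl40b/+ 12 rose in each assay. Without rpl41a neither assay had a call, and without rpl41b 3 rose in mRNA and 0 in footprints (limma). With quantile normalization 2 rose and 1 fell in footprints, and with all strains in the fit 2 rose in mRNA and 4 in footprints. The medians were 0.21 and 0.15. PGK1, phosphoglycerate kinase, rose by 0.46 ± 0.11 and 0.45 ± 0.13 (6230 and 5299 RPKM of mRNA against 3484 to 4985). The enolase genes ENO1 and ENO2 rose by 0.85 and 0.37 in mRNA and by 0.90 and 0.49 in footprints, and the ENO1 footprint call was lost in 14 of 24 other settings. GPP1, a glycerol phosphatase, rose by 0.76 and 0.81.

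**Figure D5:**
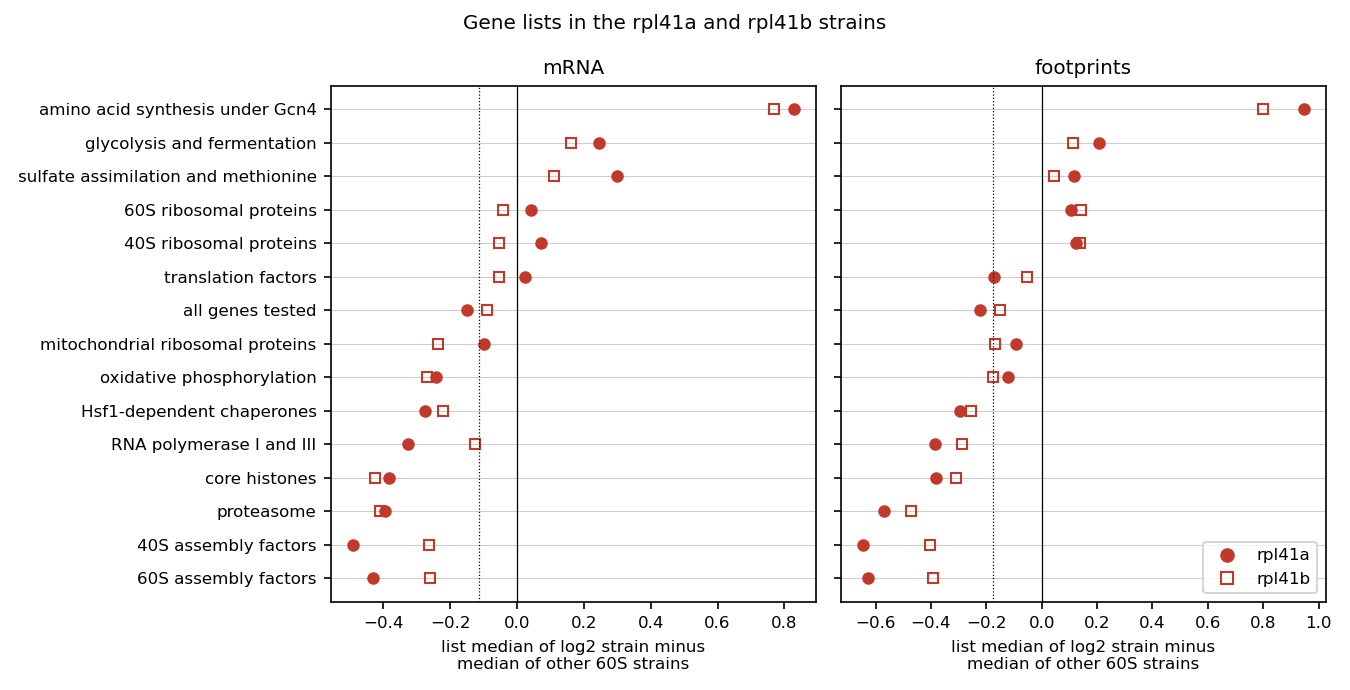
Median over each gene list of the log2 difference between rpl41a (filled circles) or rpl41b (open squares) and the median of the other 60S strains, in mRNA (left) and footprints (right), with the all-gene median of -0.11 or -0.18 dotted. The Gcn4 list stands at 0.77 to 0.95, and assembly factors, the proteasome and core histones lie lowest.

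The largest shared falls were of single genes. CIN5, a transcription factor of the Yap family, had 10.98 RPKM of mRNA in rpl41a (10 reads) and 24.8 in rpl41b, against 25.9, 93.2 and 194 RPKM. Its footprints were at 14.4 and 25.8 RPKM against 26.8, 123 and 182. It fell by 2.22 and 2.18 on the log2 scale (adjusted p = 0.0424 and 0.028), with rpl41b just below the lowest of the others in each assay. CWP2, an abundant cell wall mannoprotein, had 286 and 369 RPKM of mRNA against 466, 863 and 1522, and 339 and 423 RPKM of footprints against 567, 1157 and 1762. It fell by 1.35 and 1.56 (adjusted p = 0.0352 and 0.00739). FSH1, a serine hydrolase, fell by 0.74 and 1.06, and GRE2, a reductase of methylglyoxal, by 0.73 and 1.04. HHF1, a histone H4 gene, fell by 0.69 and 0.79 (779 and 892 RPKM of mRNA against 949 to 1644). The mRNA calls of CIN5, CWP2 and FSH1 were lost in 13, 7 and 7 of 24 other settings and that of GRE2 in 15 of 23, and their direction held in all.

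Against the wild type, 0 genes passed in either assay by limma or by voom. In limma 517 of 5103 mRNA genes (10.1%) and 508 of 4220 footprint genes (12%) had an unadjusted p under 0.05, and in voom 482 and 520. The spread in this fit came from all strains, and only 2 libraries stood on each side. For ARG1 and CWP2 the direction was that seen against the other 60S strains. Wild-type ARG1 mRNA was at 240 and 363 RPKM, which put the rpl41 strains higher by 1.82 ± 1.32, and CWP2 mRNA was at 586 and 664 RPKM, which put them lower by a log2 change of -0.94 ± 0.48 (adjusted p = 0.616 and 0.496 in limma). The Gcn4 list had a median of 0.68 in mRNA and 0.63 in footprints in the rpl41 strains, and of -0.14 and -0.20 in the other 60S strains against the same wild-type libraries. The 60S assembly factors were at -0.34 and -0.42 in the rpl41 strains and at -0.0025 and 0.08 in the others. The other 60S strains against wild type also gave 0 calls in limma, with 3.23% of mRNA genes and 4.95% of footprint genes at an unadjusted p under 0.05. Both comparisons use the same wild-type libraries.

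The rpl41a and rpl41b strains, with 1 library each per assay, allow no test between them. Their Gcn4 lists differed little, while rpl41a was farther from the other 60S strains in assembly factors. CIN5 was lower in rpl41a by log2 values of 1.11 in mRNA and 0.80 in footprints, and ENO1 was higher by 0.49 and 0.46. RPB9, an RNA polymerase II subunit, and ADF1, a small transcriptional repressor, were among the genes lowest in rpl41a relative to rpl41b. RPB9 mRNA was at 53.0 RPKM (18 reads) against 97.5 (63 reads), and ADF1 mRNA at 35.5 RPKM (11 reads) against 67.8 (40 reads). Medians over the genes of each of 16 nuclear chromosomes were taken relative to the median of the other 60S strains. In mRNA no nuclear chromosome stood apart, with -0.18 to -0.10 in rpl41a and -0.12 to -0.04 in rpl41b. Mitochondrial genes (18 in mRNA) lay outside these ranges, at -0.06 in rpl41a and -0.22 in rpl41b. In footprints the medians ran from -0.25 to -0.16 in rpl41a and from -0.21 to -0.11 in rpl41b. Chromosome III was the lowest in rpl41b footprints, at -0.21 against a median of -0.14 over chromosomes, and was at -0.22 in rpl41a footprints, where that median was also -0.22.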

How the data were processed

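Libraries of mRNA and of ribosome footprints were made from frozen cells, per the labels' protocols. The submitters' processing notes list CASAVA, bcl2fastq 2.17 and Bowtie2. No source used here names the build, the strand setting or the treatment of reads with several matches. Per the file headers the deposited columns are RPKM, but the deposited values behaved as a signal: whole reads times a library constant times the coding length less 60 nt. The reads were therefore recovered (tolerance 0.03 reads) and RPKM was recomputed on the coding length less 60 nt. This departs from the planned design, which took the columns as RPKM. With annotated lengths 87.6% of 5812 reading frames with signal came out whole, while lengths swapped between genes gave 28 of 5805. For 994 genes the length came from the values, and 244 were not used, nor was the line of each table that names no gene (1 per table).

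Genes averaging 10 RPKM or more over the strains compared entered limma 3.58.1 (with its mean-variance trend, R 4.3.3) as log2(RPKM + 1). Calls had a two-sided Benjamini-Hochberg adjusted p below 0.05. Changes of low genes are understated on this scale. Wild type entered 1 fit of all libraries. Read shares were compared by exact permutation in Python 3.11.15. The fits were also run on simulated counts with planted changes. Those counts had a fixed dispersion and no other differences between the strains of a group. They therefore cannot show the error rate under the spread between the real strains. The rpl41a mRNA library was the shallowest of those compared, and a limit of 3 reads for a count of 0 covers counting error alone. Strains were grouped by title.

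Named genes were RPL41A and RPL41B, the 12 largest shared rises and falls, the 5 largest per assay that were not shared, up to 4 called members per list and direction, key members and the largest differences between the strains. The text gives some of them, and some are not reported here. The strains, gene lists, rule and tests were chosen with earlier results of these data known. Alternatives were other added constants, minimum levels, scalings, voom, the deposited values, all strains in 1 fit, leaving out the double heterozygotes, putting back the left-out footprint library, and leaving out each library. Their use for the count of genes without overlap was added after seeing the data, as was putting back that library for the read share.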

Additional observations from a re-analysis of the deposited data

Results flagged for a closer look

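The 40S strains were in no comparison above, and 3 of them had the Gcn4 list above both wild-type libraries in each assay. As the median log2 difference from the wild-type mean over 49 genes, rps25a rps25b stood at 0.86 in mRNA and 0.96 in footprints. The strain rps22a (4662) stood at 0.58 and 0.50, and rps25b at 0.36 and 0.43. The higher wild-type library was at 0.07 in mRNA and 0.11 in footprints, rpl41a at 0.70 and 0.70, and rpl41b at 0.63 and 0.58. A second strain labelled rps22a (4659) was at -0.36 in both assays. The lowest 40S strain, rps22a/+ rps22b/+, was at -0.45 and -0.64, so that a high Gcn4 list was neither common to the 40S strains nor confined to rpl41a and rpl41b. ARG1 mRNA was at 1535 RPKM in rps25a rps25b, above both rpl41 strains, and GCN4 footprints were at 368 RPKM there. No test was run on these strains.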

How the results depend on the processing

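No paired analysis was possible because the rpl41 strains and the other strains share no replicate numbers that tie libraries together; the assays were paired by strain within translational efficiency.

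Counts of calls against the other 60S strains stayed within 1.5 times with added constants of 0.1 and 5, with no minimum, with the deposited values and with the left-out footprint library put back. In mRNA the 457 calls became 247 with median-of-ratios scaling, 211 with quantile normalization (98 higher, 113 lower), 98 with all strains in the fit, 832 without the double heterozygotes and 227 with voom (126 of them higher). In footprints the 985 calls became 506, 519 (213 higher, 306 lower), 606 and 1551, and 650 at a minimum of 50 RPKM. The 240 shared genes became 109, 81 (54 higher, 27 lower), 39, 546 and, with voom, 154 (99 higher, 55 lower). The 306 genes without overlap in both assays became 646 without the double heterozygotes, 215 with median-of-ratios scaling (167 higher, 48 lower) and 208 with quantile normalization (135 higher, 73 lower). Translational efficiency calls went from 0 to 43 at a minimum of 50 RPKM, 37 with all strains in the fit, 4 without the double heterozygotes and 17 with voom.

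Leaving out 1 library at a time gave 1 to 645 calls in mRNA, 0 to 1300 in footprints, 0 to 416 shared genes, 307 to 919 genes without overlap and 0 to 6 efficiency calls, and 0 to 17 in mRNA and 0 to 0 in footprints against wild type. The lone rpl41 strain is then assumed to vary like the others. The footprint share of ribosomal protein reads stayed between 1.72 and 2.06 points above the others, and with 1 rpl41 strain no permutation could pass. The mRNA share difference ran from -0.182 (without rpl41a) to 0.753.

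Of single genes, the RPL41B mRNA change ran from -9.28 without rpl41a to 0.0852 without rpl41b, its own deletion. RPL41B, deleted in the strain that remained, was the mRNA call left without rpl41a. RPS27B mRNA turned to 0.0299 and EGD1 mRNA to 0.0901 with median-of-ratios scaling, and EGD1 mRNA to 0.0261 with quantile normalization. The cause of these moves was not tested.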

Other observations

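Core histone, respiration and chaperone lists had negative medians and few shared calls. The median gene tested was itself at -0.11 in mRNA and -0.18 in footprints. Over all genes 6.92% fell in mRNA, 18.9% in footprints and 3.89% in both. Of 10 core histone genes, 5 fell in mRNA and 4 in footprints, with medians of -0.36 and -0.31, and HHF1 fell in both. Of 42 nuclear genes of oxidative phosphorylation, 6 fell in mRNA and 3 in footprints, the same number as shared (medians -0.26 and -0.14). Genes of mitochondrial ribosomal proteins had 7 falls of 73 in mRNA and 7 of 72 in footprints, with 2 shared (medians -0.16 and -0.11). In footprints this list and that of oxidative phosphorylation were thus less reduced than the median gene. Of 30 chaperone genes under Hsf1, the heat shock factor, 2 fell in mRNA and 7 of 27 fell in footprints (medians -0.21 and -0.26). The induced stress response list had 0 falls of 43 in mRNA and 2 of 36 in footprints, with medians of -0.30 in mRNA and -0.26 in footprints.

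Cell cycle genes had 1 fall of 33 in mRNA and 9 in footprints, and cell wall protein genes 2 of 41 and 8 of 35, with 2 shared. Of 29 ergosterol synthesis genes 1 rose in mRNA and 3 fell in footprints, and medians were 0.03 and -0.07. Of 20 purine and one-carbon genes 1 rose in each assay. These shares stand beside the all-gene shares of 6.92% lower in mRNA, 18.9% lower in footprints and 3.89% lower in both. The all-gene shares of rises were 2.04% in mRNA and 4.34% in footprints. Genes that fell in mRNA had a median coding length less 60 nt of 879, against 1167 over all genes tested, and those that fell in footprints 1233, against 1089.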
